A study of Homo sapiens with 7 samples.

Results

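The 9 genes described here encode parts of the B cell antigen receptor and of the B cell surface: CD79A, CD79B, LYN, BLK, SYK, BTK, CD22, FCRLA and MS4A1. They were given as a list of symbols and found by Ensembl identifier, 9 of the 60666 identifiers in the count table and 9 of the 18281 genes tested. RNA was sequenced in 7 libraries that the labels assign to RPMI 8226, a human line of multiple myeloma, a cancer of antibody-secreting plasma cells. Of these, 3 libraries carry the genotype HDAC6 RY, 2 HDAC6 KO and 2 WT. RY stands for CRISPR-Cas9 cells with a 2-residue change in the HDAC6 zinc finger that stops it binding ubiquitin, KO for CRISPR-Cas9 cells in which HDAC6 was knocked out, and WT for wild-type cells. All were grown in the same serum-supplemented medium with no further treatment named. The labels do not say whether an edited line is a single clone or whether replicates are separate cultures, so a p-value here covers only the scatter among these 7 libraries, possibly technical.

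In a B cell, the antigen receptor is a surface antibody held by the CD79A and CD79B chains, whose tails are phosphorylated by SRC family kinases such as LYN and BLK. The kinase SYK docks on the phosphorylated tails and passes the signal through the adaptor BLNK to BTK and phospholipase C gamma 2. CD22 restrains the receptor by recruiting a phosphatase, and MS4A1 encodes CD20, the surface target of rituximab. Plasma cells normally keep little of this machinery, while LYN, SYK and BTK also work in myeloid cells.

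Library totals ran from 31368968 to 42813888 counted reads. Levels are given as CPM, a gene's reads scaled to the size of its library. HDAC6 itself stood at 90.4, 110 and 96.5 CPM in RY, 19.0 and 12.8 CPM in KO, and 57.2 and 77.3 CPM in WT, and it fell in KO against WT (log2 fold change -2.08, SE 0.21, adjusted p = 0.000229). Gene counts cannot show the RY change. The libraries labelled RY held little RNA of most plasma cell markers, against the cell line label. The 9 plasma cell markers summed to 331 to 375 CPM in RY, 4727 to 5484 CPM in KO and 7474 to 8457 CPM in WT, and TNFRSF17, the myeloma antigen BCMA, had 0 reads in RY. XBP1, a factor of secretory cells that other cell types also express, made up 328 ± 23.2 CPM of the RY sum. JCHAIN, the antibody joining chain, made up most of the gap between KO (2156 ± 118 CPM) and WT (5196 ± 409 CPM), and 7 of the 9 markers were not called changed between KO and WT. The 13 myeloid markers ran the other way as a sum, at 1388 to 1568 CPM in RY, 57.1 to 59.5 CPM in KO and 128 to 168 CPM in WT. MPO made up 980 CPM of the RY sum, and CD33 made up 54.9 CPM of the KO sum and 68.0 CPM of the WT sum. Of the 12 tested, 10 rose and 1 fell in RY against WT, beside 23.7% of all genes called higher and 25.4% called lower. Levels in RY were low for ELANE (0.541 CPM), PRTN3 (0.116 CPM), LYZ (0.844 CPM) and CD14 (0.194 CPM, against 0.723 CPM in WT). WT also held RNA of genes that were high in RY and near absent in KO. There were 197 such protein-coding genes, defined by a level of 20 CPM or more in RY and less than 1% of it in KO, without the 9 genes. As a median, they reached 4.09% of their RY level in WT replicate 1 (quartiles 3.22% and 5.52%) and 7.26% in WT replicate 2 (quartiles 6.24% and 8.61%). This median is called the RY-type share, and the WT levels of the 9 genes are set beside the part it would give.

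Positions are those of GENCODE 29 on GRCh38. For 5 of the 9 genes the RefSeq table (GRCh38.p14) held promoter windows, 250 bases before to 50 after a start. The windows of a gene near absent from RY (FCRLA) and of 3 genes higher in RY (CD79A, BTK and CD22) are shown 5′ to 3′ to set genes of opposite pattern side by side. Capitals mark matches to any of 4 motifs searched on both strands: the octamer ATGCAAAT bound by OCT factors, the palindromic EBF motif, the PU.1 motif GAGGAAGT and the E-box CAGGTG.
FCRLA chr1:161706979-161707278, + strand: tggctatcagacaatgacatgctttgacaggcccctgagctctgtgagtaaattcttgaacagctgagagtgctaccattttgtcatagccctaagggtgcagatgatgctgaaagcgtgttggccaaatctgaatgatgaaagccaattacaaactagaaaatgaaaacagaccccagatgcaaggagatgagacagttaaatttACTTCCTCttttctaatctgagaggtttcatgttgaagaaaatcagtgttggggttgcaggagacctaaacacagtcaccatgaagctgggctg
CD79A chr19:41877029-41877328, + strand: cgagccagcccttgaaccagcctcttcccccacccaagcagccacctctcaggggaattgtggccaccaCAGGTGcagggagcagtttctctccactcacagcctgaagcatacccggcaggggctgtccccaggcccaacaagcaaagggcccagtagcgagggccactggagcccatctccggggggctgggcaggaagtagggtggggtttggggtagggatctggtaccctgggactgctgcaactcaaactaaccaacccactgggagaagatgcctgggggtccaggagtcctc
BTK chrX:101390747-101391046, - strand: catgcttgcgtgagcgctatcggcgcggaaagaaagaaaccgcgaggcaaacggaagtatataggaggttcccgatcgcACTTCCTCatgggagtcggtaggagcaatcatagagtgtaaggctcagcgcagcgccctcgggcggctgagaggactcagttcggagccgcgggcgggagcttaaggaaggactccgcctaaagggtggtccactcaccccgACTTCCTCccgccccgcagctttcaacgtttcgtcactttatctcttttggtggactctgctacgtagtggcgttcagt
CD22 chr19:35328937-35329236, + strand: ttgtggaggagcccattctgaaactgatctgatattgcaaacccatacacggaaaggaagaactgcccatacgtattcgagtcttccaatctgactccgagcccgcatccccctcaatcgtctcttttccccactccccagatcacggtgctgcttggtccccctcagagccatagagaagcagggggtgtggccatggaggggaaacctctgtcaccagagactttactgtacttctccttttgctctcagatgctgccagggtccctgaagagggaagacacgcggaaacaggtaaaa
FCRLA held the PU.1 motif on the reverse strand 44 to 37 bases before the start, and BTK held it there at 171 to 164 and at 29 to 22 bases before the start. CD79A held the E-box 181 to 176 bases before the start. The CD22 window held none of the 4, nor did a second BTK window that is not shown, and no matches overlapped. The FCRLA and CD22 windows lie wholly inside the genes as GENCODE draws them. SYK, whose windows are not shown, held both the PU.1 motif and the E-box. Of 35116 windows of the same length, 2.59% held the PU.1 motif, 20.6% the E-box, 1.77% the octamer and 1.21% the EBF motif. These matches are letters in a window, not shown binding sites.

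CPM were computed on TMM-adjusted library sizes and are given with SD where ± is given (n = 3 RY, 2 KO and 2 WT libraries). Adjusted p-values come from edgeR's quasi-likelihood test, fitted on all 18281 genes. A gene was called changed where that p was below 0.05 and the difference 2-fold or larger. All 9 genes passed the filter on low counts, but not through the same groups. CD79B reached 10 reads in the RY libraries only, CD22 in RY and WT, and MS4A1 and FCRLA in KO and WT. CD79B was thus bound to be higher in RY than elsewhere, CD22 lower in KO, and MS4A1 and FCRLA lower in RY. In bulk RNA, fewer cells with a transcript and less RNA per cell cannot be told apart.

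**Figure D1:**
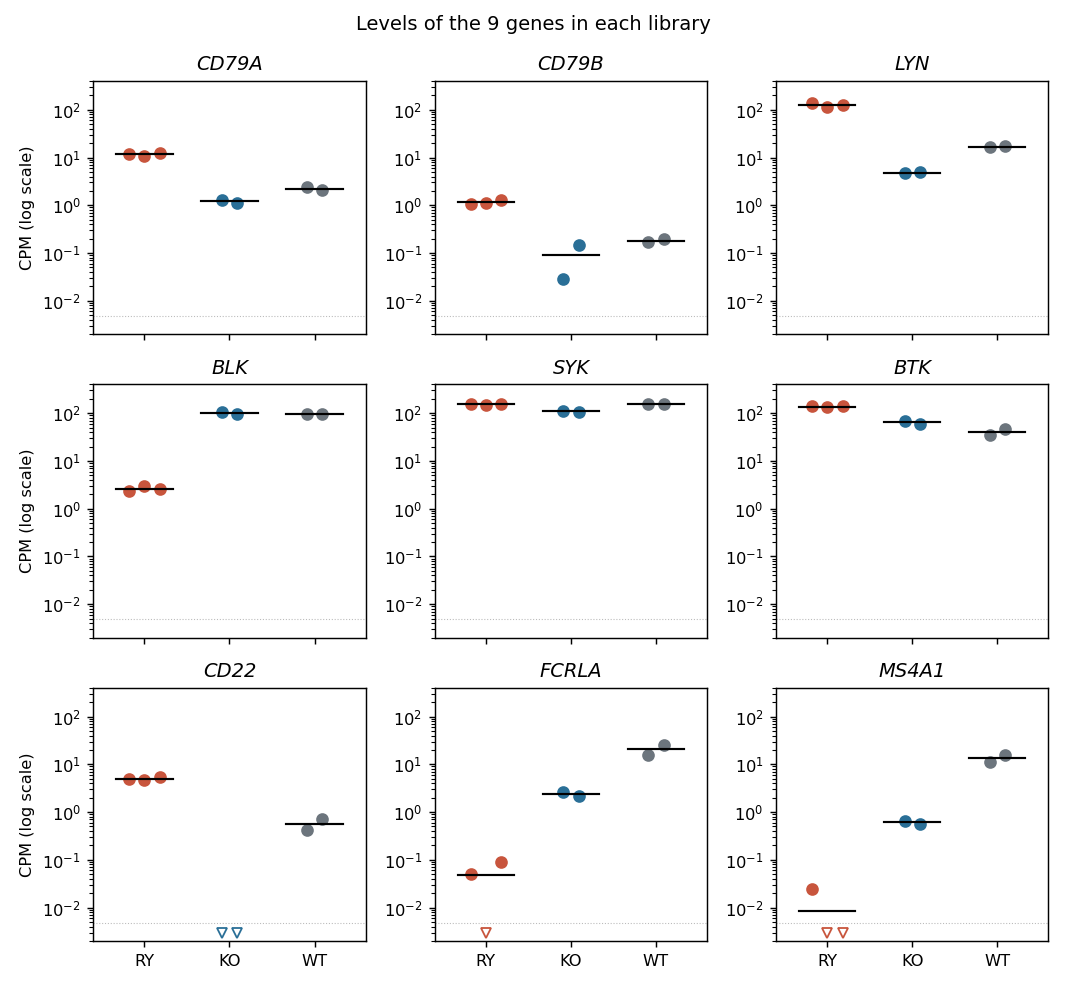
CPM of each gene (log axis) in every library, grouped as RY, KO and WT, with points for libraries and bars for group means. Open triangles under the dotted line are libraries with 0 reads. CD79A, CD79B, LYN, BTK and CD22 are highest in all 3 RY libraries, and FCRLA and MS4A1 are highest in both WT libraries.

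The receptor chains were higher in RY and low in KO and WT. CD79A, the alpha chain (ENSG00000105369, chr19:41877120-41881372, + strand), had 12.0, 10.7 and 12.7 CPM in RY, 1.29 and 1.14 CPM in KO, and 2.42 and 2.06 CPM in WT. Every RY library lay above every other library, and every KO library below every WT library. CD79A rose 5.26-fold in RY against WT (log2 2.40, SE 0.19, adjusted p = 4.27e-06). In KO it stood at 54.7% of the WT level (log2 -0.87, SE 0.22, adjusted p = 0.0255), short of a 2-fold difference. CD79B, the beta chain (ENSG00000007312, chr17:63928740-63932354, - strand), had 1.08, 1.11 and 1.27 CPM in RY, 0.0281 and 0.150 CPM in KO, and 0.167 and 0.199 CPM in WT. The KO and WT values rest on 6 and 14 reads in all, and the closest KO and WT libraries were 1 read apart. CD79B shares 288 exon bases with a gene on the same strand that had 0 reads. CD79B was 6.23-fold higher in RY than in WT (log2 2.63, SE 0.46, adjusted p = 0.000786), and its KO difference from WT was not resolved at this depth (log2 -1.04, SE 0.69, adjusted p = 0.396, with log2 -0.28 without KO replicate 1 and -2.55 without KO replicate 2). Against KO, CD79A was 9.61-fold higher in RY and CD79B 13.1-fold higher (log2 3.67, or 2.90 without KO replicate 1 and 5.13 without KO replicate 2).

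The antibody part of the receptor was nearly unread in all groups for the IgM and IgD heavy chains. IGHM had 31 reads in RY, 0 in KO and 0 in WT, and IGHD had 2 in RY, 0 in KO and 0 in WT. VPREB1, part of the surrogate light chain of pre-B cells, had 0 reads in RY, 6 in KO and 24 in WT.

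The SRC family kinases LYN and BLK had opposite patterns. LYN (ENSG00000254087, chr8:55879813-56014168, + strand) both starts and restrains receptor signalling. It had 137, 113 and 127 CPM in RY, 4.67 and 4.89 CPM in KO, and 16.3 and 17.2 CPM in WT. The 3 groups were far apart, with RY highest and KO lowest. LYN rose 7.45-fold in RY against WT (log2 2.90, SE 0.12, adjusted p = 7.55e-08) and fell to 28.4% of the WT level in KO (log2 -1.81, SE 0.13, adjusted p = 3.76e-05). BLK (ENSG00000136573, chr8:11486894-11564604, + strand) is a kinase largely restricted to the B lineage. It had 2.33, 2.94 and 2.63 CPM in RY, 107 and 94.6 CPM in KO, and 94.2 and 94.9 CPM in WT. KO and WT libraries overlapped, and all RY libraries lay far below them. BLK fell to 2.79% of the WT level in RY (log2 -5.16, SE 0.12, adjusted p = 4.42e-09), and its KO and WT levels were not told apart (log2 0.096, SE 0.11, adjusted p = 0.671). BLK shares 65 exon bases with an antisense gene that had 451 reads over all 7 libraries, and the strand setting of the counting was not given in the sources used here.

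The kinases that act after LYN and BLK were present in all groups. SYK (ENSG00000165025, chr9:90801787-90898549, + strand), which docks on the receptor tails, had 157, 147 and 156 CPM in RY, 110 and 107 CPM in KO, and 157 and 154 CPM in WT. RY and WT overlapped, and both KO libraries were lower. The SYK difference of RY from WT was -0.019 on the log2 scale (SE 0.080, adjusted p = 0.844). In KO it stood at 69.9% of WT (log2 -0.52, SE 0.088, adjusted p = 0.00402), too small a difference to be called. BTK (ENSG00000010671, chrX:101349447-101390796, - strand), the kinase that activates phospholipase C gamma 2, had 141, 132 and 139 CPM in RY, 69.5 and 60.1 CPM in KO, and 34.9 and 46.4 CPM in WT. The groups did not overlap, and of the 9 genes BTK was the only one higher in KO than in WT with an adjusted p under the threshold. BTK rose 3.34-fold in RY against WT (log2 1.75, SE 0.14, adjusted p = 3.82e-06), and was 1.59-fold higher in KO than in WT (log2 0.67, SE 0.14, adjusted p = 0.0112), short of 2-fold. Against KO it was 2.11-fold higher in RY (log2 1.08), a call lost to the 2-fold limit without KO replicate 2 (log2 0.91).

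CD22 (ENSG00000012124, chr19:35319261-35347355, + strand), the inhibitory receptor, was highest in RY and had no reads in KO. It had 4.95, 4.70 and 5.41 CPM in RY, 0 and 0 CPM in KO, and 0.416 and 0.721 CPM in WT. Its 0 reads in KO allow up to 0.0435 CPM, taking 3 reads over both libraries as the floor. CD22 rose 8.65-fold in RY against WT (log2 3.12, SE 0.31, adjusted p = 4.34e-05) and was at least 13.2-fold lower in KO than in WT (adjusted p = 0.00149). Against KO it was at least 115-fold higher in RY.

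FCRLA and MS4A1 formed the opposite pattern, highest in WT, low in KO and near 0 in RY. FCRLA (ENSG00000132185, chr1:161706972-161714352, + strand), an intracellular Fc receptor-like protein of B cells that binds antibody, had 0.05, 0 and 0.0907 CPM in RY, 2.61 and 2.22 CPM in KO, and 16.0 and 25.6 CPM in WT. All groups were apart. It fell to 11.5% of the WT level in KO (log2 -3.10, SE 0.33, adjusted p = 0.000292). In RY, FCRLA fell to 0.207% of WT, on 5 reads (log2 -8.79, SE 0.45, adjusted p = 3.14e-07, with log2 -8.19 without RY replicate 2 and -9.54 without RY replicate 3). MS4A1, the CD20 gene (ENSG00000156738, chr11:60455752-60470760, + strand), had 0.0250, 0 and 0 CPM in RY, 0.647 and 0.570 CPM in KO, and 11.3 and 15.9 CPM in WT. A single read stood for the gene in all RY libraries together. MS4A1 fell to 4.45% of the WT level in KO (log2 -4.47, SE 0.32, adjusted p = 4.40e-05). In RY it was 1570-fold below WT by that read, with a counting interval of 281 to 62074 (adjusted p = 1.51e-07). The log2 fold change of -10.1 became -12.0 without RY replicate 1, which held the read. RY lay below KO as well, for FCRLA 55.6-fold (log2 -5.68, or -6.44 without RY replicate 3) and for MS4A1 69.9-fold with an interval of 11.9 to 2824 (log2 -5.66, or -7.49 without RY replicate 1).

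**Figure D2:**
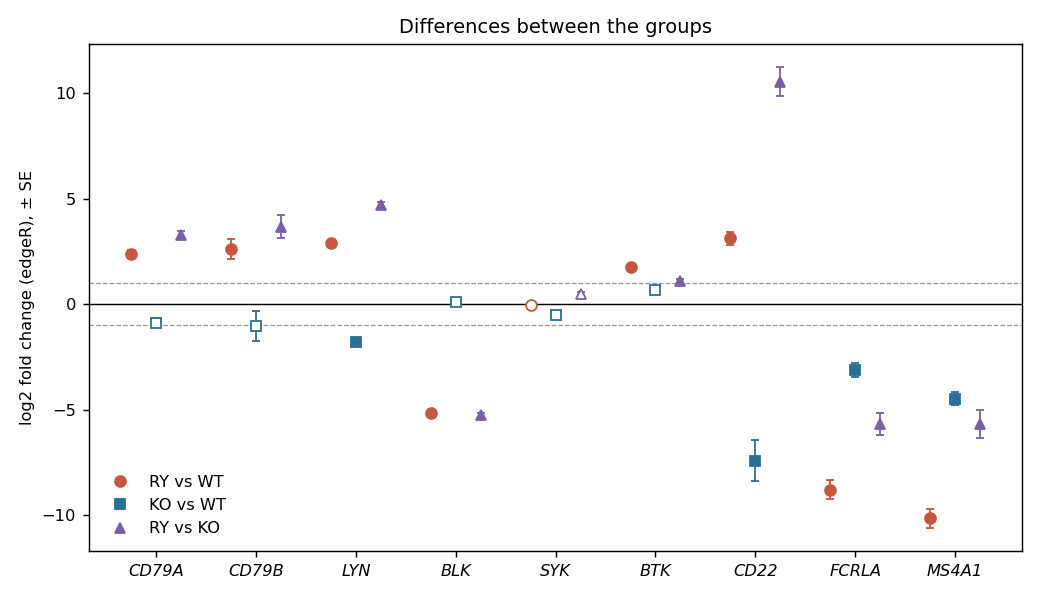
Log2 fold change with SE for RY against WT (circles), KO against WT (squares) and RY against KO (triangles). Filled marks passed the test with the 2-fold minimum (dashed lines). The fitted CD22 values against KO, which had 0 reads, depend on the prior count and are not measured folds. CD79A, CD79B, LYN, BTK and CD22 sit above 1 for RY against WT, and BLK, FCRLA and MS4A1 below -5.

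In all, 5 of the 9 genes rose and 3 fell in RY against WT, beside 23.7% of all genes higher and 25.4% lower (49.1% called in either direction). Libraries of RY and WT did not overlap for 8 of the 9, beside 81.7% of all genes. Against KO the counts were likewise 5 higher and 3 lower in RY, where 24.0% of all genes were higher and 26.0% lower, and libraries did not overlap for 9 of the 9, beside 84.6% of all genes. The share of the 9 that changed in RY is to be read against that background. It includes CD79B, MS4A1 and FCRLA, whose direction in RY was bound by the groups through which they passed the filter. In KO against WT, 4 of the 9 fell and 0 rose, beside 7.64% of all genes lower and 3.3% higher (10.9% in either direction), with a median log2 fold change of -1.04 over the 9 and -0.0089 over all genes. KO and WT libraries did not overlap for 8 of the 9, beside 48.7% of all genes. The 4 that fell include CD22, which passed the filter through RY and WT and was thus bound to be lower in KO. In a fit of the KO and WT libraries alone the same count of 4 fell, with adjusted p from 0.00186 for MS4A1 to 0.0254 for CD22. In that fit CD22 could pass the filter only through WT, so its direction was bound there too. The comparisons with WT share the WT libraries, so their values are not independent. The authors' deposited tables list 9877 genes for RY against WT and 2336 for KO against WT. They hold 8 of the 9 genes for RY against WT, with log2 fold changes from -10.1 for MS4A1 to 3.13 for CD22. For KO against WT they hold 4 of the 9 (MS4A1 -4.47, FCRLA -3.10, LYN -1.81 and CD22 -7.46). Those tables describe the same libraries, so they are no independent check.

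Per kilobase of exon, the order of levels differed between groups. In RY, BTK (30.0 ± 1.06 CPM per kb, SD, n = 3) and SYK (29.4 ± 1.09) overlapped at the top, LYN followed at 20.3 ± 1.93 and CD79A at 7.85 ± 0.685 CPM per kb. CD22 (0.815), then CD79B (0.553) and BLK (0.518), which overlapped, came next, and FCRLA (0.0143) and MS4A1 (0.00171) were last with overlapping ranges. In KO, SYK (20.8 ± 0.385, n = 2) and BLK (19.9 ± 1.79) overlapped, BTK stood at 14.2 ± 1.45, and CD79A (0.810), LYN (0.773) and FCRLA (0.738) could not be separated. MS4A1 (0.125), CD79B (0.0428) and CD22 (0) followed in KO. In WT the order was SYK (29.8 ± 0.355, n = 2), BLK (18.6 ± 0.0963), BTK (8.88 ± 1.77) and FCRLA (6.35 ± 2.06), of which the last pair overlapped. MS4A1 (2.79) and LYN (2.72) overlapped below them, CD79A had 1.49, and CD22 (0.0923) and CD79B (0.0878) overlapped at the bottom. SYK thus had the highest mean in both KO and WT, and the receptor chain CD79B was below 1 CPM per kb in all groups.

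Set against RNA of the RY kind in WT, the 9 genes fell into separate classes. For MS4A1 and FCRLA the share would give at most 0.00382% and 0.0133% of the level in either WT library, and for BLK at most 0.201%. Taking the part away thus changed the WT level of these 3 genes by no more than 0.201%. The part is a share of the RY level, which was near 0 for MS4A1 and FCRLA, so it had to be small. It is therefore no test of their lower level in KO. For SYK it would give 4.01% of the level in WT replicate 1 and 7.23% in replicate 2.

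For the genes high in RY the part was larger. For LYN the part came to 31.4% of the level in WT replicate 1 and 52.9% in replicate 2, and the KO libraries, at 4.67 and 4.89 CPM, lay below the rest of WT, at 11.2 and 8.12 CPM. The log2 ratio of KO to WT for LYN was -1.81 with the part and -1.02 without it. For CD22 the part came to 49.3% and 50.6%, on only 15 and 29 reads in WT replicates 1 and 2. It had no reads in KO, beside 0.211 and 0.356 CPM left in WT. For CD79A it came to 0.482 of 2.42 CPM in replicate 1 and 0.856 of 2.06 CPM in replicate 2 (29.9% of the mean level), and the KO libraries, at 1.29 and 1.14 CPM, overlapped the rest of WT, at 1.93 and 1.21 CPM. For CD79B the part was 28.3% and 42.0%, on few reads. For BTK it came to 16.1% and 21.5%, and KO, at 69.5 and 60.1 CPM, then stood further above WT, with 29.3 and 36.4 CPM left (log2 ratio of KO to WT 0.98 in place of 0.67). These ratios of levels have no test.

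The WT level of LYN was 13.0% and 13.7% of its RY level in WT replicates 1 and 2. CD22 stood at 8.29% and 14.4% of RY, CD79A at 20.5% and 17.5%, CD79B at 14.5% and 17.3%, and BTK at 25.5% and 33.8%. All lay above the RY-type share. The genes behind the share were chosen for near absence from KO, whereas LYN, CD79A, CD79B and BTK had reads in KO. The share itself was 1.77-fold higher in WT replicate 2 than in replicate 1. Over the same pair, CD22 was 1.73-fold higher (29 reads against 15), FCRLA 1.60-fold, MS4A1 1.40-fold, BTK 1.33-fold and CD79B 1.19-fold (8 reads against 6). LYN (1.05-fold), BLK (1.01-fold) and SYK (0.983-fold) were nearly level, and CD79A ran the other way, at 0.854-fold. Over genes at 5 CPM or more in WT, the same ratio had a median of 0.975.

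**Figure D3:**
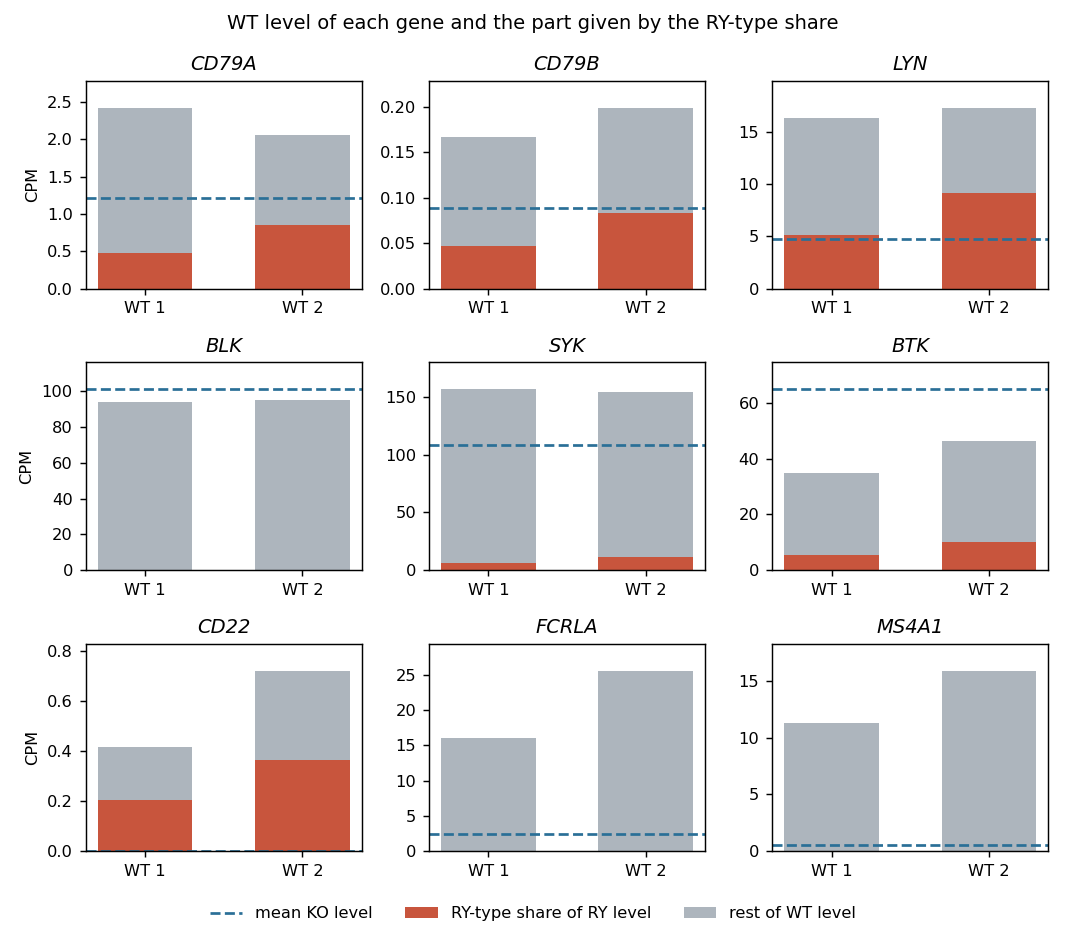
Stacked bars give the CPM of each gene in the 2 WT libraries, split into the part that the RY-type share of its RY level would give (red) and the rest (grey), with the mean KO level as a dashed line. The red part is 31.4% and 52.9% for LYN and 49.3% and 50.6% for CD22, and is too small to see for BLK, FCRLA and MS4A1.

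Other genes of the pathway, 104 in 7 lists by role, of which 75 were tested, changed in both directions in RY: 36 rose and 20 fell against WT, with a median log2 fold change of 0.91 beside -0.026 over all genes. Over all genes 23.7% rose and 25.4% fell in RY, and the counts of each list are to be read beside these shares. Of 17 coreceptor and surface genes tested, 6 rose and 8 fell. CR2, a complement receptor of B cells, stood at 0.0362 CPM in RY and 88.4 ± 6.26 CPM in WT (adjusted p = 5.38e-09), and the tetraspanin gene CD81 at 4.33 ± 0.196 CPM in RY and 106 ± 10.3 CPM in WT. TNFRSF13B, the receptor TACI, stood at 0.0202 CPM in RY and 93.6 ± 25.5 CPM in WT. Of 13 kinases 8 rose and 3 fell. PRKCB, the kinase that links the receptor to NF-kappaB, rose to 221 ± 6.21 CPM in RY, against 16.2 ± 5.26 CPM in WT (log2 3.77, adjusted p = 3.06e-07). The SRC family gene FYN rose to 141 ± 1.74 CPM, against 12.1 ± 4.56 CPM in WT, and TEC, a relative of BTK, to 13.4 ± 0.439 CPM, against 2.08 ± 0.125 CPM.

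Of 24 adaptors and downstream genes 11 rose and 6 fell in RY, and links next to SYK and BTK went both ways. PLCG2, the phospholipase C gamma 2 gene, rose to 189 ± 8.88 CPM in RY, against 43.9 ± 2.46 CPM in WT (log2 2.10, adjusted p = 8.85e-07). BLNK, the adaptor between those kinases, stood at 0.910 ± 0.198 CPM in RY and 78.7 ± 20.3 CPM in WT (log2 -6.42, adjusted p = 5e-08). The adaptor gene DAPP1 stood at 3.60 ± 0.291 CPM in RY and 134 ± 31.0 CPM in WT. Of 15 inhibitors 8 rose and 1 fell. Those that rose include INPP5D, the lipid phosphatase SHIP1, at 159 ± 6.59 CPM in RY and 50.6 ± 3.38 CPM in WT, the adaptor DOK1 (log2 2.13) and the ubiquitin ligase CBL (log2 1.63).

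In KO against WT, 1 of the 75 genes rose and 19 fell, beside 3.3% of all genes higher and 7.64% lower. The median log2 fold change of the 75 was -0.38, beside -0.0089 over all genes. Of the surface genes 6 fell. PTPRC, the phosphatase CD45 that primes SRC family kinases, stood at 0.397 ± 0.203 CPM in KO and 15.1 ± 7.04 CPM in WT (adjusted p = 7.14e-05). CD180, a receptor related to Toll-like receptors, had 2 reads in KO and 116 in WT (adjusted p = 0.000166). Of the kinases 4 fell, among them PRKCB at 1.64 ± 0.150 CPM in KO (log2 -3.31) and YES1 at 5.32 ± 0.433 CPM in KO and 19.9 ± 4.27 CPM in WT. Of the adaptors 3 fell, including VAV3 (log2 -2.84) and STAP1 (log2 -2.45), and NFATC2, a transcription factor of calcium signalling, rose to 21.0 ± 0.983 CPM, against 8.06 ± 1.11 CPM in WT (adjusted p = 0.000187). Of the inhibitors 4 fell, among them LILRB1 (1 read in KO and 854 in WT), the membrane adaptor PAG1 (6 reads in KO and 565 in WT) and the phosphatase PTPN22 (22 reads in KO and 189 in WT, log2 -2.93, or -3.52 without KO replicate 1). Of these 19 genes, 4 are themselves among the 197 that define the RY-type share, including PTPRC, PRKCB and PAG1. For 5 of the other 15 the share would give at least 50% of the WT level, beside 30.9% of the 1201 genes lower in KO that do not define it. These 5 include VAV3 (62.1%), STAP1 (76.3%), PTPN22 (72.2%) and CD180 (56.6%), whereas YES1 (21.1%) and LILRB1 (3.32%) lay below that.

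Relatives of MS4A1 and FCRLA were mostly unread. Of 3 MS4A relatives tested, 1 fell in KO: MS4A4A, from the gene cluster of MS4A1, stood at 0.907 ± 0.307 CPM in KO and 5.59 ± 2.33 CPM in WT (log2 -2.62, adjusted p = 0.00511). It was near 0 in RY too (5 reads, log2 -6.89, with -6.29 without RY replicate 2 and -7.64 without RY replicate 3), an order of groups also seen for MS4A1. The other 14 had at most 123 reads in any group, with the highest for MS4A7 in RY. FCRLB, the closest relative of FCRLA, stood at 0.837 ± 0.124 CPM in RY, 0.834 ± 0.305 CPM in KO and 2.20 ± 0.339 CPM in WT (log2 -1.40 in RY, adjusted p = 0.00291, and -1.40 in KO, adjusted p = 0.0257). The KO call was lost without KO replicate 1 (adjusted p = 0.176), without RY replicate 1 (0.0544), without RY replicate 3 (0.0521), in a fit of KO and WT alone (0.0949) and with the replicate block (0.123). The surface receptor genes FCRL1 to FCRL6 had at most 17 reads in any group.

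**Figure D4:**
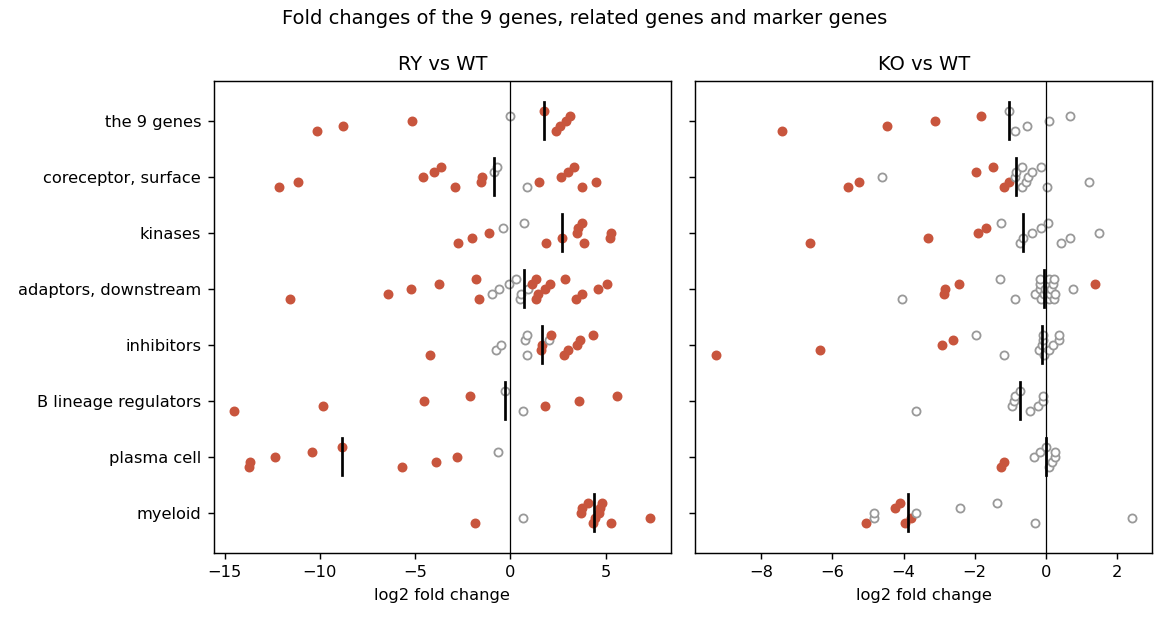
Log2 fold changes of the tested genes of each list for RY against WT (left) and KO against WT (right), with filled red points for genes that passed the test, open points for the rest and black bars at the list medians. Plasma cell markers lie left of 0 and most myeloid markers right of 0 in RY against WT, while the 9 genes spread from -10.1 to 3.12.

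Beside these counts, markers of other lineages moved with the groups. Of 9 B lineage regulators, 3 rose and 4 fell in RY against WT, beside 23.7% and 25.4% of all genes. PAX5 stood at 9.88 ± 0.616 CPM in RY, 0.435 ± 0.0210 CPM in KO and 0.812 ± 0.363 CPM in WT, and EBF1 had 235 reads in RY, 0 in KO and 3 in WT, whereas POU2AF1, a coactivator of octamer-binding factors, had 1 read in RY and stood at 145 ± 16.1 CPM in KO and 278 ± 71.5 CPM in WT. IKZF3 (0.0986 CPM in RY and 92.5 CPM in WT) and CIITA (0.308 CPM in RY and 7.43 CPM in WT) also fell in RY. PAX5 and EBF1, regulators of B cell identity, were named after their values were seen. Of 12 myeloid markers tested, 10 rose and 1 fell in RY against WT, and 5 fell in KO against WT, beside 7.64% of all genes lower in KO. All 5 are among the 197 genes that define the RY-type share. The 8 T cell markers summed to 234 to 245 CPM in RY, 7.23 to 8.32 CPM in KO and 13.2 to 24.6 CPM in WT. CD4, also a myeloid gene, made up 239 ± 5.87 CPM of the RY sum. Of the 5 T cell markers tested, 2 rose and 3 fell in RY against WT, beside 23.7% and 25.4% of all genes. CD8A stood at 0 CPM in RY, 3.92 CPM in KO and 2.94 CPM in WT, whereas CD3D had 21 reads in RY, 0 in KO and 0 in WT. The 5 NK cell markers summed to at most 12.6 CPM in any library and the 6 stromal and epithelial markers to 8.90 to 10.7 CPM in RY, 142 to 143 CPM in KO and 176 to 180 CPM in WT. The epithelial genes EPCAM (67.7 CPM in KO and 82.0 CPM in WT) and KRT18 (68.2 and 86.3 CPM) made up most of the KO and WT sums. The stromal gene COL1A1 ran the other way, at 9.73 CPM in RY, 1.78 CPM in KO and 1.43 CPM in WT. The part of these markers in the results for the 9 genes was not tested.

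The genes whose profile over the 7 libraries lay closest to each of the 9 were, among 13565 protein-coding genes, MAST4 for MS4A1 (root mean square difference 0.27 in centred log2 CPM), SEMA3C for FCRLA (0.20), B4GALNT3 for CD22 (0.077), CMTM3 for LYN (0.10), TRPM2 for CD79A (0.095), ZNF792 for CD79B (0.20), PJA1 for BTK (0.066), GAS2 for BLK (0.065) and CAMTA1 for SYK (0.028). The libraries form 3 groups, so many genes come close. Within the 9, MS4A1 ranked as the 34th closest gene to FCRLA and FCRLA as the 22nd closest to MS4A1. CD79A ranked 148th for CD79B and CD79B 198th for CD79A. LYN ranked 142nd for CD22, and CD22 189th for LYN. BLK, BTK and SYK had no other gene of the 9 closer than rank 1027.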

How the data were processed

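RNA of 7 libraries was extracted with a total RNA kit and prepared as stranded TruSeq libraries, per the labels' protocols. The main table, as deposited by the authors, holds a raw count of reads for each Ensembl gene. Tools in the submitters' processing notes are STAR 2.7.4 and HTSeq 0.9.1, besides FastQC and edgeR 1.34.1, on GRCh38. Their roles, the annotation release and the strand setting are not given in the sources used here. A second table deposited by the authors holds a scaled score per gene and was not used. The authors' deposited tables of RY and KO against WT give log2 fold changes, an F score and p-values for genes with a fold of at least 2 and a false discovery rate under 0.05, and were used only where named.

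Symbols and positions came from the gene name table and GENCODE 29, for 60437 and 58420 of 60666 identifiers. One model with 3 group means and no covariates was fitted to all 7 libraries (edgeR 4.0.16 in R 4.3.3, TMM factors 0.932 to 1.09, minimum count 10), and was tested on simulated data. Adjusted p-values are Benjamini-Hochberg values over all genes tested. SE is the absolute log2 fold change over the square root of F, and folds are ratios of summed reads over TMM-scaled library sizes. Counting intervals are exact at 95% and, like the floor of 3 reads, cover counting error only. Profile likeness used log2(CPM + 0.1). Alternatives were RLE factors, DESeq2 1.42.0, no low-count filter, fits of 2 groups, a replicate block and leaving out each library.

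The 9 genes, the related lists and the motifs were chosen with earlier results of these data known. Besides the 9, genes were named by a rule: HDAC6, up to 3 called genes of each list with the lowest adjusted p against WT (or the 2 most abundant), and the closest profile to each of the 9. IGHD, CD3D, PAX5, EBF1, TNFRSF17, XBP1 and PLCG2 were named in addition, after their values were seen, as were genes given only by their reads. Some genes that the rule names are not reported here.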

Additional observations from a re-analysis of the deposited data

How the results depend on the processing

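The calls for the 9 genes held under nearly all alternatives. Of 727 recomputed values for single genes, 721 kept their direction and side of the threshold, 6 kept direction only (BTK in RY against KO and FCRLB in KO against WT, 5 times) and 0 reversed. The number of the 9 genes called was 4 in KO against WT under every refit, 8 in RY against WT and 7 to 8 in RY against KO. Leaving out members with at least 50% of their WT level from the RY-type share removed CD22 and left 3 in KO against WT and 7 in RY against WT. At 50.1%, CD22 lay at that limit, and the genes behind the share spread around their median. Adjusted p for CD79A in KO against WT ran from 0.0120 to 0.180, for SYK from 1.35e-05 to 0.0637 and for BTK from 2.10e-05 to 0.0834, all short of a 2-fold difference. Over all genes, 1432 were called in KO against WT with 2 groups only and 2509 with no filter, beside 2001. The RY-type share of 5.68% was 4.09% to 7.26% with a WT library left out, 5.52% with a stricter RY minimum of 50 CPM, 5.26% with a stricter KO maximum of 0.2% and 5.04% with library size only.

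Leaving out a WT or KO library leaves a group with 1 sample, which is then assumed to vary like the others. With the replicate block, 4, 8 and 8 of the 9 genes were called in KO against WT, RY against WT and RY against KO, and 17 rather than 20 related genes in KO against WT. Deviations from group means correlated at -0.565 between same-numbered KO and WT libraries and at 0.565 between those of opposite number. Between same-numbered RY and WT libraries they correlated at 0.128 and 0.188. In a group of 2 libraries the deviations mirror each other, so these values cannot show whether samples were paired. With the numbers of KO crossed, a fit added after seeing the data, 4 of the 9 and 2012 of all genes were called in KO against WT. Depth limited CD79B outside RY, and MS4A1 and FCRLA in RY.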
